A study of Mus musculus with 12 samples.

Results

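The 53 genes described here belong to the cell division cycle and were picked by symbol from a table of 53341 genes measured by RNA sequencing of mouse fibroblast-like synoviocytes, cells of the joint lining grown in culture. They comprise 20 genes of the G1/S transition and S phase, 32 genes of G2 and mitosis, and Ccnd1, a cyclin of early G1. All 53 were among the 18139 genes kept for testing, which reached 10 normalized counts in 3 or more libraries.

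Cells that divide copy their DNA in S phase and separate the copies in mitosis, and many of the proteins involved are made from mRNAs that peak around the phase that needs them. Genes of the first wave are driven by E2F factors once cyclin D and cyclin E kinases have inactivated the retinoblastoma proteins. Genes of the second wave are held off by the DREAM complex in resting cells and switched on by B-MYB (Mybl2) and FOXM1 in cycling ones. Synoviocytes are known for slow growth in the healthy joint and for overgrowth in inflamed joints, where TNF is a main inflammatory signal.

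The 12 libraries form 4 groups of 3, all of synoviocytes from mice labelled SoxC. SoxC_KO_TNF cells received Ade5CMV-Cre, an adenovirus that expresses Cre recombinase, and recombinant human TNF at 10 ng/mL for 16 h. SoxC_KO cells received Ade5CMV-Cre alone. The control_TNF cells received Ade5CMV-eGFP, an adenovirus that expresses a fluorescent protein, and TNF. The control cells received Ade5CMV-eGFP alone, so every group carried an adenovirus. SOXC stands for the transcription factors Sox4, Sox11 and Sox12, and the series asks which TNF responses depend on them. The sources used here do not give the SoxC alleles, what Cre deletes in them, the share of cells that the virus reached, or the animals or cultures behind each library. The spread between libraries, on which all p-values rest, may therefore be technical. Replicate numbers come from the sample titles.

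Normalized totals were 19.6 to 23.1 M per library, and no library was identical to another. Sox4 averaged 902 ± 263 normalized counts in SoxC_KO_TNF, 1138 ± 511 in SoxC_KO, 2323 ± 1146 in control_TNF and 3413 ± 1348 in control (SD, n = 3 each), lower but not absent in the Cre groups. Sox11 averaged 69.7 ± 37.8 in SoxC_KO_TNF, 119.7 ± 80.9 in SoxC_KO, 193 ± 54.6 in control_TNF and 232 ± 67.8 in control, and Sox12 125 ± 36.5, 227 ± 32.6, 281 ± 44.6 and 285 ± 107 in the same groups. Libraries of SoxC_KO and control overlapped for Sox11 and Sox12 but not for Sox4. Those of SoxC_KO_TNF and control_TNF did not overlap for any of these genes. The synoviocyte gene Prg4 (lubricin) was at 3540 normalized counts or more and Col1a1, a collagen gene, at 48918 or more in every library. The 4 libraries numbered 3, 1 in each group, stood apart from the other 8. Liver transcripts were high in 2 others, SoxC_KO_TNF replicate 1, with albumin (Alb) at 2690 normalized counts, and control_TNF replicate 2, with 382.

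Calls among the cell cycle genes lay between replicate numbers and not between treatments. All 32 G2 and mitosis genes were lower in the libraries numbered 3 than in those numbered 1 and 2, with a median log2 change of -1.50. The 20 genes of S phase were divided between 13 that were lower, 1 that was higher and 6 that did not pass the test. Calls between these numbers were common among all genes tested, at 56.2%, with 30.3% lower and 25.9% higher in number 3. No member passed the test for TNF, for loss of SoxC or for their interaction. Few of all genes did: 0.292% for TNF in SoxC_KO cells, 0.32% for TNF in control cells, and 0 for loss of SoxC or the interaction. The main tests of treatment left the difference between replicate numbers in their spread, unlike the test of the numbers, which removed group. With replicate number as a block no member passed either. The heat map of the 53 genes displays the values behind these counts.

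**Figure D1:**
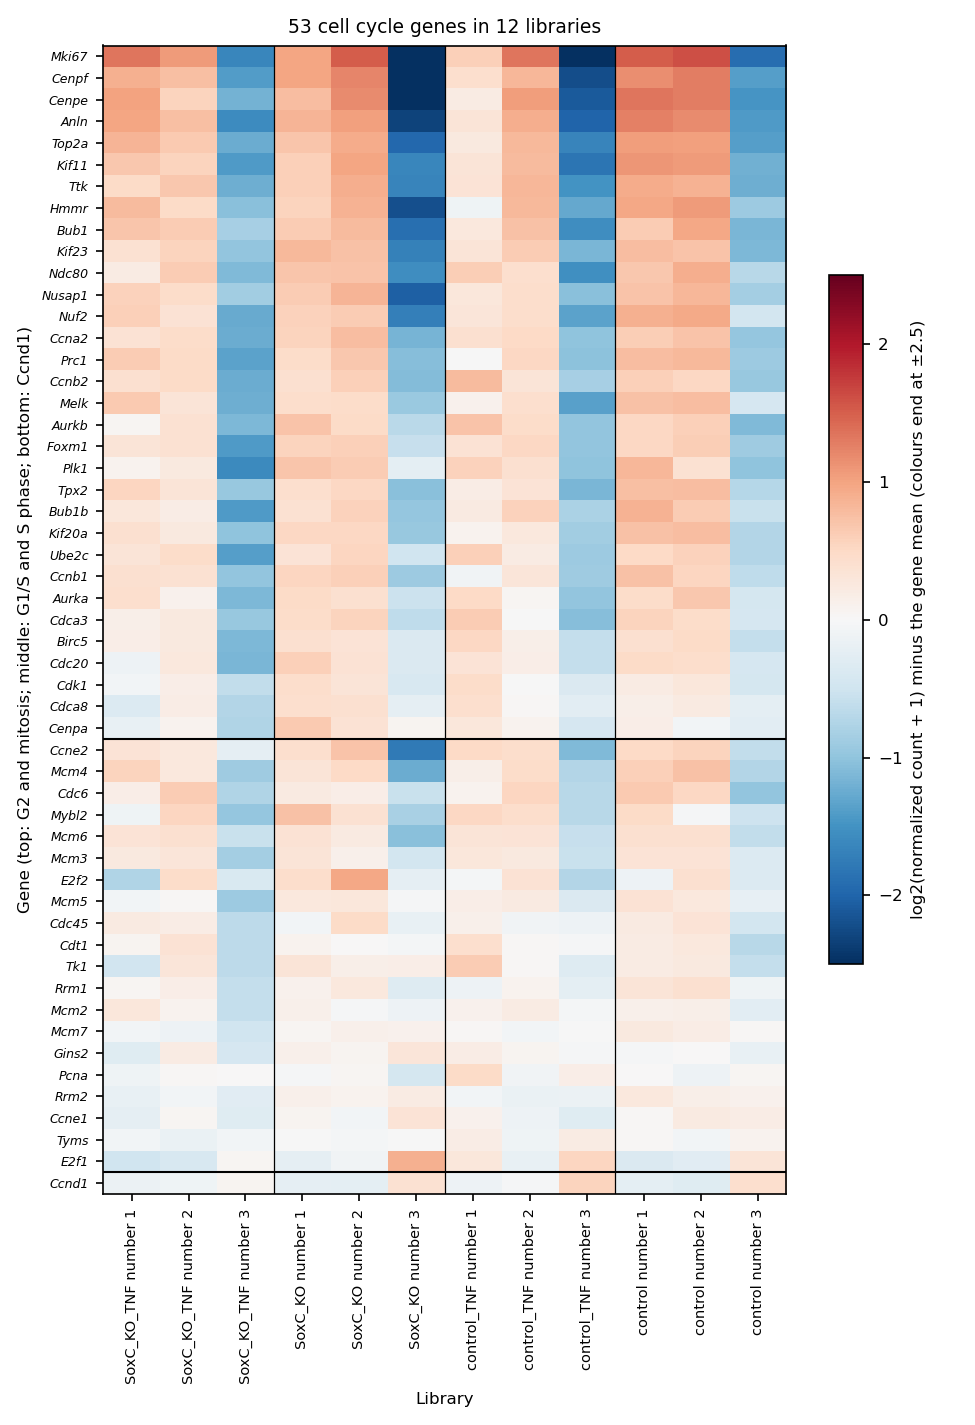
Each cell is the log2(normalized count + 1) of a gene in 1 library minus the gene's mean over the 12 libraries, with red above and blue below the mean; vertical lines separate the groups and horizontal lines the phase lists. The column of number 3 is blue for nearly all 32 G2 and mitosis genes in each of the 4 groups, and mixed for the 20 genes of S phase.

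Replicate number 3 was compared with numbers 1 and 2 in a limma model with group and number as terms, on log2(normalized count + 1). P-values were adjusted by the Benjamini-Hochberg method over all 18139 genes, and the threshold was 0.05. The test counts the 4 libraries numbered 3 as separate units, although they may share an animal, a culture or a day. The contrast was also written with number 3 known to stand apart. Its p-values therefore do not measure how repeatable the difference is. Of the 53 members 45 were lower and 2 higher in number 3, where 30.3% of all genes tested were lower and 25.9% higher (56.2% in either direction). An F test for any difference among the 3 numbers called 46 members and 47.7% of all genes. The median change was -1.50 for the 32 G2 and mitosis genes and -0.53 for the 20 genes of S phase, against -0.06 for all genes. In bulk RNA, fewer dividing cells and less of an mRNA per cell cannot be told apart.

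As a geometric mean over the 32 genes of G2 and mitosis, the libraries numbered 3 stood at 163, 153, 160 and 201 normalized counts in SoxC_KO_TNF, SoxC_KO, control_TNF and control. The 8 libraries numbered 1 and 2 ranged from 466 to 614. For the 20 genes of S phase the libraries numbered 3 ranged from 366 to 435 and the other 8 from 512 to 614. On neither summary did number 3 overlap the others. Such separation was not particular to these genes. The same mean over fibroblast and synoviocyte markers was 7283 to 7984 in number 3 and 10490 to 12600 in the others. Over genes for CDK inhibitors, pocket proteins and antiproliferative factors it was 733 to 883 and 805 to 961, with overlap.

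Mki67 encodes Ki-67, the protein that coats mitotic chromosomes and that pathologists stain to count cycling cells. It lies at chr7:135689784-135716361, minus strand, in mm10. In the libraries numbered 3 it stood at 209 normalized counts in SoxC_KO_TNF, 53.7 in SoxC_KO, 90.7 in control_TNF and 173 in control. In numbers 1 and 2 it stood at 1646 and 1359 in SoxC_KO_TNF, 1301 and 1865 in SoxC_KO, 993 and 1656 in control_TNF, and 1866 and 1988 in control. The 4 libraries numbered 3 lay below all 8 others, and the change was -3.74 ± 0.25 (SE) on the log2 scale, or 13.3-fold lower (adjusted p = 4.31e-06). No other member had a larger change.

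Top2a, the topoisomerase that untangles sister chromosomes, had 541 normalized counts in SoxC_KO_TNF, 326 in SoxC_KO, 407 in control_TNF and 494 in control in number 3. Its levels in numbers 1 and 2 were 2314 and 2025 in SoxC_KO_TNF, 2076 and 2426 in SoxC_KO, 1517 and 2254 in control_TNF, and 2633 and 2596 in control. Here too number 3 lay below every other library, with a change of -2.34 ± 0.14 (SE), 5.06-fold lower (adjusted p = 2.38e-06).

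The kinetochore genes Cenpf and Cenpe, which tie chromosomes to the spindle, followed Mki67 in size of change. Cenpf had 72.5 normalized counts in SoxC_KO_TNF, 32.2 in SoxC_KO, 40.9 in control_TNF and 73.7 in control in number 3, against a lowest of 261, a median of 373 and a highest of 475 in the 8 libraries numbered 1 and 2. Its change was -2.83 ± 0.19 (SE) (adjusted p = 4.40e-06). Cenpe had 164 in SoxC_KO_TNF, 59.7 in SoxC_KO, 86.3 in control_TNF and 132 in control in number 3, against a lowest of 425, a median of 756 and a highest of 935 in numbers 1 and 2, a change of -2.76 ± 0.23 (SE) (adjusted p = 8.00e-06). For both genes the highest library numbered 3 was below the lowest of the others.

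Spindle motors and the machinery of cell division were lower as well. Kif11, the motor that pushes spindle poles apart, had 94.0 normalized counts in SoxC_KO_TNF, 81.1 in SoxC_KO, 71.2 in control_TNF and 109 in control in number 3 and a lowest of 317, a median of 422 and a highest of 546 in numbers 1 and 2, a change of -2.28 ± 0.13 (SE) (adjusted p = 1.48e-06). Anln, the anillin that organizes the contractile ring, had 206 in SoxC_KO_TNF, 122 in SoxC_KO, 152 in control_TNF and 229 in control in number 3 and a lowest of 767, a median of 1173 and a highest of 1468 in numbers 1 and 2, a change of -2.73 ± 0.15 (SE) (adjusted p = 1.41e-06). Every library numbered 3 was below every other for both. Kif23, a motor of the midzone between separating chromosomes, ranged from 66.4 to 109 in number 3 and from 271 to 378 in numbers 1 and 2. Hmmr, a spindle protein that also serves as a hyaluronan receptor, ranged from 95.2 to 234 in number 3 and from 407 to 917 in the others. Their changes were -1.85 ± 0.16 (SE) and -2.04 ± 0.21 (SE), again without overlap.

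Checkpoint kinases, which hold mitosis until every chromosome is attached, showed the same order. Bub1 had 127 normalized counts in SoxC_KO_TNF, 60.4 in SoxC_KO, 76.5 in control_TNF and 102 in control in number 3 and a lowest of 271, a median of 359 and a highest of 442 in numbers 1 and 2, a change of -2.02 ± 0.16 (SE) (adjusted p = 7.64e-06). Ttk, also called Mps1, had 41.9 in SoxC_KO_TNF, 30.9 in SoxC_KO, 34.7 in control_TNF and 42.0 in control in number 3 and a lowest of 126, a median of 168 and a highest of 189.6 in numbers 1 and 2, a change of -2.10 ± 0.15 (SE) (adjusted p = 5.29e-06). Ranges did not overlap for either kinase. The related Bub1b changed by -1.40 ± 0.13 (SE), and the outer kinetochore genes Ndc80 and Nuf2 by -1.83 ± 0.16 (SE) and -1.78 ± 0.15 (SE), all lower in number 3.

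The cyclin and the kinase that start mitosis were both lower. Ccnb1, the cyclin B1 that activates CDK1, had 233 normalized counts in SoxC_KO_TNF, 248 in SoxC_KO, 249 in control_TNF and 298 in control in number 3. Numbers 1 and 2 held 617 and 606 in SoxC_KO_TNF, 669.6 and 702 in SoxC_KO, 438 and 573 in control_TNF, and 777 and 674 in control. The change was -1.28 ± 0.12 (SE), 2.43-fold lower (adjusted p = 1.36e-05), and no value of number 3 reached the others. Cdk1, the kinase itself, had 501 in SoxC_KO_TNF, 578 in SoxC_KO, 595 in control_TNF and 568 in control in number 3. Numbers 1 and 2 held 728 and 860.0 in SoxC_KO_TNF, 1036 and 964 in SoxC_KO, 1053 and 761 in control_TNF, and 888 and 935 in control. Its libraries did not overlap either, with a change of -0.68 ± 0.11 (SE), 1.60-fold lower (adjusted p = 3.57e-04). Whether Cdk1 changed less than Ccnb1 was not tested. The cyclins Ccna2 and Ccnb2 changed by -1.64 ± 0.10 (SE) and -1.54 ± 0.13 (SE).

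Among the other G2 and mitosis genes the mitotic kinases Aurka, Aurkb and Plk1 had log2 changes of -1.16, -1.45 and -1.45. Those of the spindle and midzone genes Tpx2, Prc1, Nusap1 and Kif20a lay between -1.80 and -1.33, and that of Melk, a kinase of dividing cells, was -1.47. Birc5 (survivin) and Cdca8 (borealin), which act with Aurkb in the complex that corrects chromosome attachment, changed by -1.01 and -0.55. Cdc20 and Ube2c, through which cyclin B is tagged for destruction, changed by -0.94 and -1.31, and Cdca3 by -1.15. The smallest change on the list was that of Cenpa, the histone that marks centromeres, at -0.52 ± 0.12 (SE).

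The order of libraries was counted as well. In 30 of the 32 G2 and mitosis genes all 4 libraries numbered 3 were below all 8 others, as in 13.7% of all genes tested, the exceptions being Cenpa and Cdca8. The same held for 9 of the 20 genes of S phase. Number 3 was the lowest of its group in all 4 groups for 43 members, 32 of mitosis and 11 of S phase, and for 24.7% of all genes. It was the highest in all 4 groups for E2f1 and Ccnd1, and for 23% of all genes.

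Regulators of the second wave were also lower. Foxm1, the forkhead factor of G2 genes, had 147 normalized counts in SoxC_KO_TNF, 263 in SoxC_KO, 198 in control_TNF and 212 in control in number 3. The other libraries held 489 and 515 in SoxC_KO_TNF, 579.8 and 594 in SoxC_KO, 503 and 567 in control_TNF, and 566 and 601 in control. Ranges did not overlap, and the change was -1.45 ± 0.12 (SE) (adjusted p = 7.64e-06). Mybl2, which encodes B-MYB and is itself an E2F target at the G1/S transition, had 79.3 in SoxC_KO_TNF, 88.7 in SoxC_KO, 96.3 in control_TNF and 109 in control in number 3. The other libraries held 143 and 226 in SoxC_KO_TNF, 259.9 and 204 in SoxC_KO, 224 and 211 in control_TNF, and 216 and 153 in control. It was 2.16-fold lower, a change of -1.11 ± 0.17 (SE) (adjusted p = 2.12e-04), again without overlap.

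**Figure D2:**
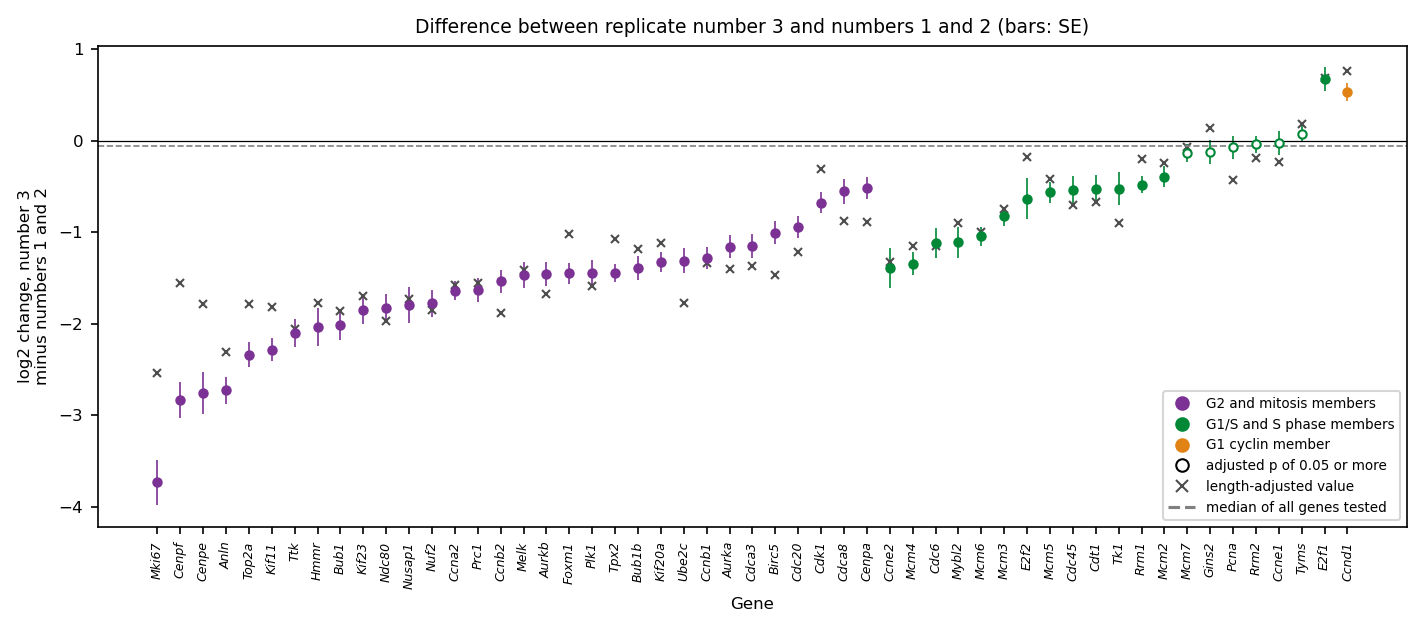
Points are the log2 change of each gene in number 3 against numbers 1 and 2 (vertical axis) with its SE (bars), sorted within the phase lists; open points did not pass the test, and crosses give the value after a trend with transcript length was removed. All 32 G2 and mitosis genes lie below the median of all genes (dashed), the genes of S phase run from -1.40 (Ccne2) to 0.68 (E2f1), and Ccnd1 lies at 0.54.

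Among the genes of the G1/S transition and S phase, 13 of 20 were lower in number 3, E2f1 was higher, and Ccne1, Gins2, Mcm7, Pcna, Rrm2 and Tyms did not pass the test. The 6 MCM genes, whose proteins form the ring that unwinds DNA at the replication fork, had changes of -1.34 for Mcm4, -1.04 for Mcm6, -0.83 for Mcm3, -0.57 for Mcm5, -0.39 for Mcm2 and -0.13 for Mcm7. Mcm4 had 385 normalized counts in SoxC_KO_TNF, 298 in SoxC_KO, 429.7 in control_TNF and 428 in control in number 3, against a lowest of 785, a median of 986 and a highest of 1181 in numbers 1 and 2. Mcm7 had 684 in SoxC_KO_TNF, 1042 in SoxC_KO, 948 in control_TNF and 985 in control in number 3, against a lowest of 875, a median of 989.5 and a highest of 1141 in numbers 1 and 2. Genes for parts of the same ring thus had unequal changes, though the differences between genes were not tested.

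Mcm2 had 502 normalized counts in SoxC_KO_TNF, 694 in SoxC_KO, 735 in control_TNF and 639 in control in number 3. Its levels were 925 and 805 in SoxC_KO_TNF, 832 and 749 in SoxC_KO, 817 and 885 in control_TNF, and 829 and 848 in control in numbers 1 and 2. At -0.39 ± 0.12 (SE) (adjusted p = 0.0134) it had the smallest change of the members called lower, although the ranges did not overlap, and it did not pass without SoxC_KO_TNF replicate 3 (-0.26, adjusted p = 0.0697). Mcm5 had 296 in SoxC_KO_TNF, 551 in SoxC_KO, 434 in control_TNF and 484 in control in number 3. Its levels were 531 and 572 in SoxC_KO_TNF, 672 and 681 in SoxC_KO, 628 and 651 in control_TNF, and 715 and 669 in control in numbers 1 and 2. The change was -0.57 ± 0.11 (SE) (adjusted p = 0.00119), and number 3 was the lowest of its group in all 4 groups.

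The genes that load MCM rings onto DNA were lower. Cdc6 had 82.7 normalized counts in SoxC_KO_TNF, 95.2 in SoxC_KO, 86.3 in control_TNF and 70.0 in control in number 3, against a lowest of 149, a median of 183 and a highest of 219.8 in numbers 1 and 2, a change of -1.12 ± 0.16 (SE) (adjusted p = 1.36e-04). Cdt1, its partner, changed by -0.53 ± 0.16 (SE) (adjusted p = 0.013), and did not pass without SoxC_KO_TNF replicate 3 (-0.42, adjusted p = 0.0591) or control replicate 3 (-0.40, adjusted p = 0.0856). Cdc45, which joins MCM and GINS proteins into the working helicase, changed by -0.54 ± 0.15 (SE) (adjusted p = 0.00865). Gins2, a GINS subunit, had a change of -0.12 ± 0.13 (SE) that did not pass (adjusted p = 0.437), and its exons share 2758 bases with those of Gse1 on the opposite strand.

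The sliding clamp and several makers of DNA precursors did not pass the test. Pcna, the clamp that holds polymerases on DNA, had 1308 normalized counts in SoxC_KO_TNF, 962 in SoxC_KO, 1460 in control_TNF and 1349 in control in number 3. It had 1205 and 1332 in SoxC_KO_TNF, 1270 and 1337 in SoxC_KO, 1798 and 1218 in control_TNF, and 1304 and 1187 in control in numbers 1 and 2. The libraries were interleaved, and the change was -0.07 ± 0.13 (SE) (adjusted p = 0.643). Rrm2, the small subunit of ribonucleotide reductase, had a change of -0.04 ± 0.09 (SE) (adjusted p = 0.719) and Tyms, thymidylate synthase, of 0.08 ± 0.09 (SE) (adjusted p = 0.505). Rrm1, the large reductase subunit, changed by -0.48 ± 0.10 (SE) (adjusted p = 0.00136), and Tk1, thymidine kinase, by -0.53 ± 0.18 (SE) (adjusted p = 0.0244), both lower in number 3. Tk1 did not pass without SoxC_KO_TNF replicate 3 (-0.51, adjusted p = 0.0563), control_TNF replicate 3 (-0.49, adjusted p = 0.0873), control replicate 2 (-0.50, adjusted p = 0.0512) or control replicate 3 (-0.43, adjusted p = 0.114).

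The E cyclins take cells from G1 into S phase with CDK2. Ccne1 had 457 normalized counts in SoxC_KO_TNF, 721 in SoxC_KO, 461 in control_TNF and 645 in control in number 3. It had 484 and 587 in SoxC_KO_TNF, 596 and 537 in SoxC_KO, 613 and 517 in control_TNF, and 576 and 665 in control in numbers 1 and 2. Its change was -0.02 ± 0.13 (SE) (adjusted p = 0.885) and the ranges overlapped. Ccne2 had 253 in SoxC_KO_TNF, 86.1 in SoxC_KO, 138 in control_TNF and 194 in control in number 3, against a lowest of 355, a median of 411 and a highest of 492 in numbers 1 and 2, and was lower, with a change of -1.40 ± 0.22 (SE) (adjusted p = 2.25e-04). The exons of Ccne2 share 609 bases with Ints8 on the opposite strand, and no source used here states whether counting used strand.

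E2f1 and Ccnd1 were the members higher in number 3. E2f1, an activator of S phase genes, had 978 normalized counts in SoxC_KO_TNF, 1761 in SoxC_KO, 1379 in control_TNF and 1185 in control in number 3. The other 8 libraries held 668 and 715 in SoxC_KO_TNF, 809.6 and 888 in SoxC_KO, 1148 and 828 in control_TNF, and 736 and 777 in control. Number 3 was the highest of its group in all 4 groups, with overlap across groups, and the change was 0.68 ± 0.13 (SE), 1.60-fold higher (adjusted p = 7.53e-04). E2f2, of the same family and at 15.5 to 53.3 normalized counts over all libraries, was lower, with a change of -0.63 ± 0.23 (SE) (adjusted p = 0.0311). It did not pass in 8 of the 12 fits that left out 1 library, with adjusted p of 0.0543 to 0.108 (SoxC_KO_TNF replicate 2, SoxC_KO replicates 1, 2 and 3, control_TNF replicates 1 and 3, control replicates 1 and 3).

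Ccnd1 encodes cyclin D1, which links growth signals to the first cyclin-dependent kinases. It had 9055 normalized counts in SoxC_KO_TNF, 11196 in SoxC_KO, 12587 in control_TNF and 11514 in control in number 3. The other 8 libraries held 7716 and 8016 in SoxC_KO_TNF, 7317 and 7258 in SoxC_KO, 7875 and 8429 in control_TNF, and 7306 and 6966 in control. All 4 libraries numbered 3 were above all 8 others, as for 13.8% of all genes tested, and the change was 0.54 ± 0.10 (SE), 1.45-fold higher (adjusted p = 7.57e-04). Its exons share 1100 bases with the opposite-strand gene LTO1.

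**Figure D3:**
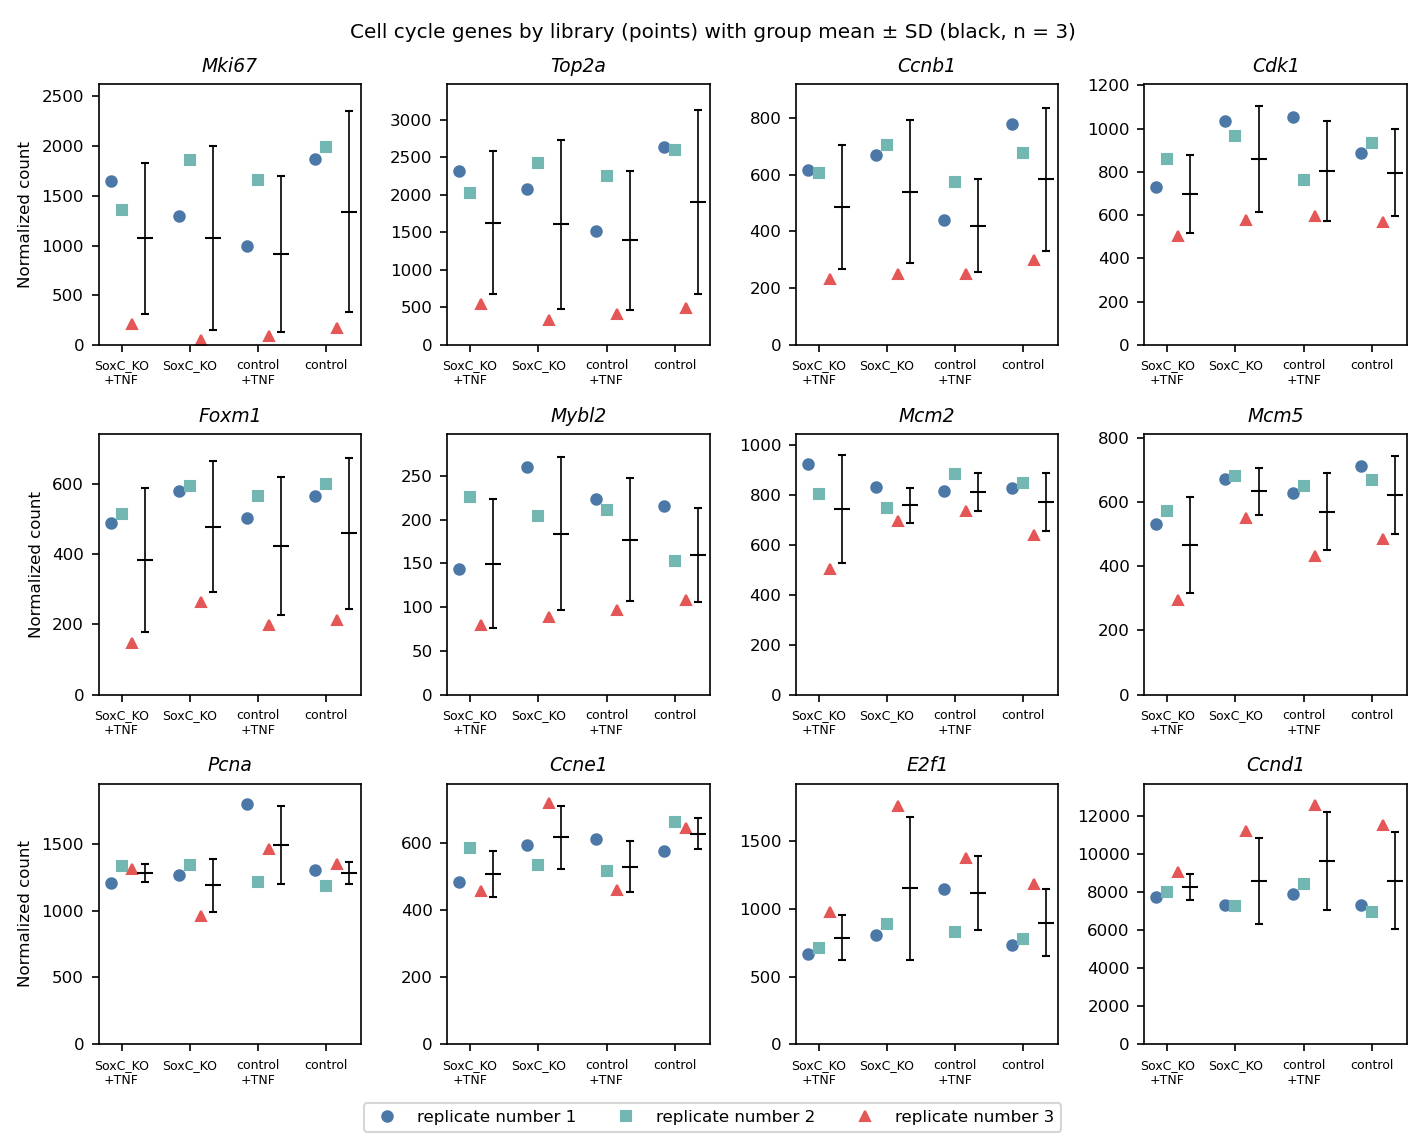
Normalized count (vertical axes, linear from 0) of 12 genes in each library (circle, number 1; square, number 2; triangle, number 3) with the mean ± SD of each group (black, n = 3). The triangles of Mki67, Top2a, Ccnb1, Cdk1, Foxm1, Mybl2 and Mcm2 lie below all circles and squares, those of Ccnd1 lie above them, and those of Pcna and Ccne1 are interleaved.

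Promoters of the members were read from RefSeq (GRCm38.p6, the assembly of mm10), as 300 bases per start, 250 before it and 50 from it on. Entries were matched for 44 members, 27 of G2 and mitosis and 17 of S phase, and not for Kif20a, Ccne2, Ccnd1, Foxm1, Ccna2, Gins2, Aurkb, Mcm4 and Tpx2. Windows of 6 genes are shown because second-wave genes are known to carry a cell cycle homology region (CHR), which DREAM and B-MYB complexes bind, near CCAAT boxes, and first-wave genes E2F sites. Each window runs 5′ to 3′ on the gene's strand, from 150 bases before the start through the first 30 of the transcript. Capitals mark the CHR (TTTGAA or TTCGAA), the CCAAT box (CCAAT) and E2F sites (TTTCCCGC, TTTGGCGC, TTTCGCGC or TTCCCGCC), each searched on both strands. E2F words can overlap one another. Mki67 (chr7:135716350-135716529, minus strand), Top2a (chr11:99024160-99024339, minus strand), Kif11 (chr19:37376232-37376411, plus strand) and Cdc20 (chr4:118437314-118437493, minus strand) are genes of G2 and mitosis, and Mcm6 (chr1:128359676-128359855, minus strand) and Mcm3 (chr1:20820283-20820462, minus strand) of S phase.
Mki67: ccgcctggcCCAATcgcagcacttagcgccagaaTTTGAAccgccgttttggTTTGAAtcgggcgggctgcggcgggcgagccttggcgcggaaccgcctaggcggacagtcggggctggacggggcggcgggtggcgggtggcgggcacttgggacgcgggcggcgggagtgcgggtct
Top2a: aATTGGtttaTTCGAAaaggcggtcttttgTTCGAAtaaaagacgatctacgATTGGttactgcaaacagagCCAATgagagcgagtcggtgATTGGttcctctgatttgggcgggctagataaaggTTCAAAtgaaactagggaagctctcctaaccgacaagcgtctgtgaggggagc
Kif11: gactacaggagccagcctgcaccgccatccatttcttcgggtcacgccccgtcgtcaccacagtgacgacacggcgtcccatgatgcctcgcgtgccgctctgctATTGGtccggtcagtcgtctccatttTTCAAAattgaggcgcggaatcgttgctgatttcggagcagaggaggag
Cdc20: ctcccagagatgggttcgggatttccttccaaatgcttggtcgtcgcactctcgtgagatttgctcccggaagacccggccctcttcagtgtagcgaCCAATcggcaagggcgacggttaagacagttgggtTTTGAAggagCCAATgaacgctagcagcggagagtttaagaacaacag
Mcm6: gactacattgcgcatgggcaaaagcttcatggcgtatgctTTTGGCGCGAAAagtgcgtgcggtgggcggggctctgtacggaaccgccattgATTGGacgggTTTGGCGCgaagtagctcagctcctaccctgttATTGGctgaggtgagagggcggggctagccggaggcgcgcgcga
Mcm3: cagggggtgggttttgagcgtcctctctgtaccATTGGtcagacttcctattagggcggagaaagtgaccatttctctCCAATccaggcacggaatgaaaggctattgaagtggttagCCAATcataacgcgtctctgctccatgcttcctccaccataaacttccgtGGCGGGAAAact

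A CHR was found in 21 of 27 G2 and mitosis promoters (77.8%) and in 4 of 17 S phase promoters (23.5%), against 21.7% of the 27018 genes with a promoter in the table. A CCAAT box was found in 21 of 27 (77.8%) and in 10 of 17 (58.8%), against 41.1% of all. An E2F word was found in 1 of 27 (3.70%, Cdk1) and in 8 of 17 (47.1%), against 4.0% of all. The S phase genes with an E2F word were Cdc6, Cdt1, E2f2, Mcm3, Mcm5, Mcm6, Mcm7 and Rrm1. In the windows shown, the first base of the CHR nearest upstream of the start is at -23 in Top2a, -19 in Kif11, -18 in Cdc20 and -98 in Mki67, and neither Mcm6 nor Mcm3 has a CHR. Mcm6 (-1.04) and Mcm3 (-0.83) were lower in number 3, as were Mki67 (-3.74), Top2a (-2.34), Kif11 (-2.28) and Cdc20 (-0.94). Such matches describe letters in a window, and their relation to the changes was not tested.

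Other genes of the cycle were taken from lists outside the 53. Of 32 other S phase genes 24 were lower in number 3 and 1, the clamp loader gene Rfc2, was higher (0.37, adjusted p = 0.0287), where 30.3% of all genes were lower and 25.9% higher. Rfc2 did not pass in 6 of the 12 fits that left out 1 library, with adjusted p of 0.0542 to 0.0999 (SoxC_KO replicates 1 and 3, control_TNF replicates 2 and 3, control replicates 1 and 3), nor without an intensity trend (0.0508) or without the 2 libraries high in liver transcripts, SoxC_KO_TNF replicate 1 and control_TNF replicate 2 (0.0506). Of 32 other G2 and mitosis genes 29 were lower and 1, Psrc1, was higher (0.43, and 0.12 with adjusted p = 0.242 after the length adjustment described further on). After the same adjustment Rfc2 was at 0.88 and passed (adjusted p = 0.00105). In S phase the largest falls were in E2f8 (-2.53 ± 0.22 SE, 32.1 against 185, adjusted p = 9.59e-06), a repressor of the E2F family, Pola1 (-2.32 ± 0.26 SE, 58.7 against 258, adjusted p = 3.15e-05), the catalytic subunit of DNA polymerase alpha, and Brip1 (-2.30 ± 0.19 SE, 31.3 against 152, adjusted p = 8.15e-06), a repair helicase. These brackets give the log2 change and the mean normalized counts of number 3 against numbers 1 and 2. In mitosis the largest falls were in Knl1 (-3.25 ± 0.31 SE, 37.2 against 297, adjusted p = 1.52e-05), a kinetochore scaffold, Ect2 (-2.43 ± 0.17 SE, 69.7 against 365, adjusted p = 5.10e-06), an activator of cytokinesis, and Kif20b (-2.30 ± 0.22 SE, 76.7 against 345, adjusted p = 1.34e-05), a motor.

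Brakes of the cycle were called in both directions. Of 18 genes for CDK inhibitors, pocket proteins and antiproliferative factors, 7 were higher and 7 lower in number 3, where 25.9% of all genes were higher and 30.3% lower. The largest rises were in Cdkn2a (1.47 ± 0.18 SE, 4679 against 1726, adjusted p = 4.26e-05), Cdkn1c (1.03 ± 0.33 SE, 19.5 against 9.48, adjusted p = 0.0178) and Cdkn1a (0.94 ± 0.12 SE, 28698 against 14730, adjusted p = 5.00e-05), which encode the inhibitors p16 (with p19ARF), p57 and p21. Cdkn2a and Cdkn1a are known to be raised in cells that have left the cycle under stress or with age in culture. The largest falls were in Rbl1 (-1.66 ± 0.19 SE, 105 against 317, adjusted p = 3.10e-05), Lin54 (-1.50 ± 0.24 SE, 137 against 353, adjusted p = 2.48e-04) and Rb1 (-1.46 ± 0.20 SE, 273 against 711, adjusted p = 8.59e-05), which encode the pocket protein p107, a DNA-binding subunit of DREAM, and the retinoblastoma protein. After length adjustment the counts were 5 higher and 8 lower, against 25% and 23.1% of all genes. Cdkn1c no longer passed (adjusted p = 0.0646). Nor did the CDK inhibitor gene Cdkn2d, named after its values were seen (0.53 before and 0.15 after, adjusted p = 0.503). Cdkn1c also did not pass without SoxC_KO_TNF replicate 3 (0.87, adjusted p = 0.0723) or without control replicate 3 (0.94, adjusted p = 0.0755).

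Of 16 other cyclins, kinases and regulators 2 were higher, Cdk7 (0.58 ± 0.11 SE, 1588 against 1060, adjusted p = 6.61e-04) and Cdk4 (0.56 ± 0.11 SE, 6349 against 4273, adjusted p = 0.0011), and 11 were lower, against the same 25.9% and 30.3% of all genes. The largest falls there were in E2f7 (-2.17 ± 0.21 SE, 39.3 against 185, adjusted p = 1.63e-05), a repressor of E2F targets, Cdk6 (-1.58 ± 0.20 SE, 285 against 798, adjusted p = 6.46e-05), a partner of D cyclins, and Wee1 (-1.26 ± 0.16 SE, 143 against 345, adjusted p = 6.61e-05), which restrains CDK1. After length adjustment 2 were higher and 8 lower, against 25% and 23.1% of all genes. Cdk6 was then at -0.27 (adjusted p = 0.0965), Ccnd2 at 0.07 (-0.69 before), Ccnf at -0.30 (-0.62 before) and Cdc25a at -0.063 (-0.27 before), and none of these 4 passed; Ccnd2, Ccnf and Cdc25a were named after their values were seen.

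The fall of the mitotic genes in number 3 was present in each group. The median over the 32 genes of number 3 minus the mean of numbers 1 and 2 was -1.65 in SoxC_KO_TNF, -1.54 in SoxC_KO, -1.44 in control_TNF and -1.50 in control, with all 32 genes below 0 in each. For the 20 genes of S phase the medians were -0.64 in SoxC_KO_TNF, -0.34 in SoxC_KO, -0.27 in control_TNF and -0.50 in control, with 17, 14, 17 and 16 genes below 0. Of the 18139 genes tested 9631, 9237, 9195 and 9345 lay below 0 in the same groups. Single genes varied more: Mki67 was at -2.83 in SoxC_KO_TNF, -4.83 in SoxC_KO, -3.81 in control_TNF and -3.47 in control. Number 2 against number 1 called 0 members and 0 of all genes in limma. There 1 member, E2f2, had an unadjusted p under 0.05 (0.67 ± 0.26 (SE)), and the medians were 0.06 for the mitotic genes and 0.00 for those of S phase.

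Transcript length moved with replicate number. Over 18112 genes with a length in GENCODE M21, the change in number 3 correlated with log2 transcript length at r = -0.47 (Spearman's rho = -0.51), a description across genes that share the 12 libraries. The median change was 0.52 in the shortest decile of genes and -1.01 in the longest. Among the 32 mitotic genes r was -0.75 and among the 20 of S phase -0.25, with median lengths of 2962.5 and 2984 bases, against 2731.5 for all genes. Mki67 (10061 bases), Cenpf (11130) and Cenpe (7910) are the longest members and had the largest falls. The shortest, Birc5 (947) and Ube2c (967), changed by -1.01 and -1.31, where the median of the decile that holds genes of their length was 0.46.

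After the trend with length was removed from each library, 31 of the 32 mitotic genes were still lower in number 3, with a median of -1.58, against 23.1% of all genes. Mki67 then changed by -2.54, Top2a by -1.78, Birc5 by -1.47 and Ube2c by -1.78. Cdk1 no longer passed (-0.31, adjusted p = 0.0578). Of the S phase genes 11 were lower and 1 higher, with a median of -0.42. E2f2 (-0.18, adjusted p = 0.54), Rrm1 (-0.20, adjusted p = 0.101) and Mcm2 (-0.24, adjusted p = 0.0941) no longer passed, and Pcna did (-0.43, adjusted p = 0.00737). Ccnd1 (0.76) and E2f1 (0.69) were still higher, as were 25% of all genes.

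**Figure D4:**
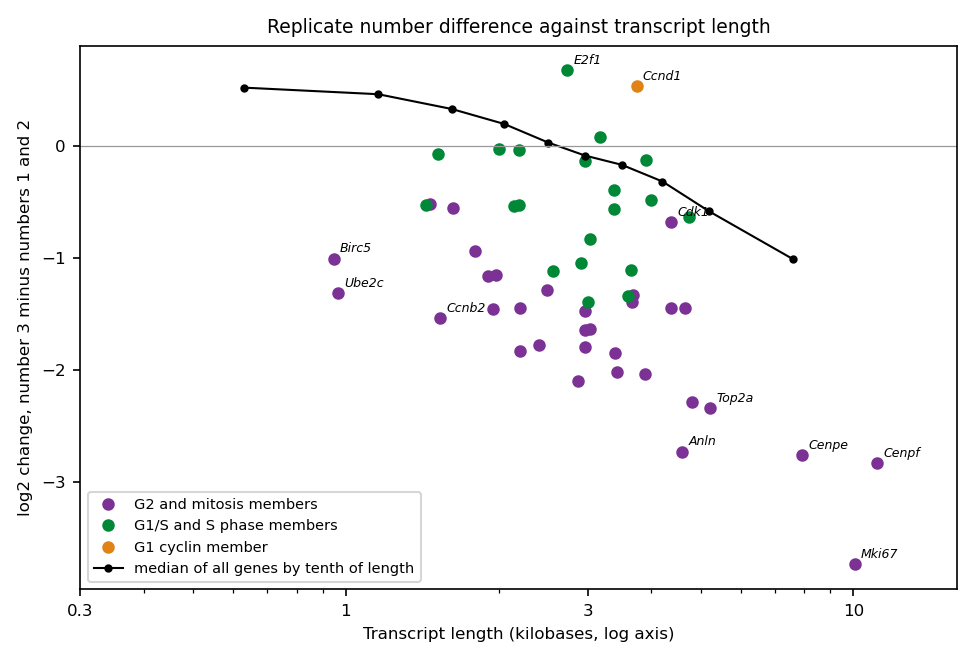
The log2 change in number 3 against numbers 1 and 2 (vertical axis) is plotted against transcript length (horizontal, log axis) for the 53 genes, with the median of all genes in each decile of length joined by a line. The 32 mitotic genes lie below the line at every length, from Birc5 and Ube2c at the short end to Mki67 at -3.74 near the long end, while E2f1 and Ccnd1 lie above it.

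Summed levels of cell type markers also differed in number 3. The summed level of 14 fibroblast and synoviocyte markers was 219511 to 400485 normalized counts in number 3 and 416716 to 580976 in numbers 1 and 2. Most of this sum came from Col1a1, Col1a2 and Col3a1. Of the 14 markers 9 were lower and 1 higher, where 30.3% of all genes were lower and 25.9% higher. In SoxC_KO, Thy1 was at 22495 in number 3 against 13510 and 13901, and Vim at 54422 against 53640 and 50640. In SoxC_KO_TNF both were lowest in number 3, Thy1 at 11005 against 11058 and 12747 and Vim at 27555 against 41512 and 42135. Thy1 was at 15359 against 13212 and 11560 in control_TNF and at 17542 against 12988 and 13028 in control. Vim was at 38919 against 41508 and 35247 in control_TNF and at 52068 against 49545 and 49974 in control. No length-adjusted counts are given for the markers. The summed level of 11 macrophage markers was 3518 to 4108 in number 3 and 1404 to 2109 in the others. Lyz2 made up the largest part, at 2172 to 2438 in number 3. Of the 9 tested, 8 were higher, against 25.9% of all genes. Ptprc, which all white blood cells express, was at 0 to 19.1 normalized counts and C1qa, a macrophage gene, at 2.59 to 10.7 over the 12 libraries. Summed levels of 5 neutrophil markers were 1401 to 2374 in number 3 and 474 to 1426 in the others. S100a9, Ltf and Ngp were at 0 in 6 or more libraries. The 2 tested, S100a8 and Camp, were higher, against 25.9% of all genes. The part of these markers in the fall of the mitotic genes was not tested.

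TNF left no member past the test. In limma with 1 mean per group, 0 of 53 members were called for TNF in SoxC_KO cells (SoxC_KO_TNF against SoxC_KO), where 0.292% of all genes were, and 0 for TNF in control cells (control_TNF against control), where 0.32% were. At an unadjusted p under 0.05 there were 1 and 0 members. Over the 32 mitotic genes the median TNF change was -0.09 in SoxC_KO cells, with 20 below 0, and -0.34 in control cells, with 27 below 0, where 50.9% and 52.1% of all genes lay below 0. Over the 20 genes of S phase it was -0.15 in SoxC_KO cells and -0.07 in control cells, against -0.01 and -0.02 for all genes.

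These medians leaned on which libraries were in. Without the 4 libraries numbered 3, 0 members were called and the mitotic medians were -0.19 in SoxC_KO cells and -0.31 in control cells. Leaving out 1 library at a time left 0 members called but moved the median in SoxC_KO cells between -0.72 (without SoxC_KO replicate 3) and 0.47 (without SoxC_KO_TNF replicate 3). That in control cells moved between -0.87 (without control replicate 3) and 0.23 (without control_TNF replicate 3). Without the 2 libraries with liver transcripts they were -0.39 and -0.63, and number 3 then weighs more in the TNF groups.

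Means over the groups show the spread. Mki67 averaged 1072 ± 760.4 normalized counts in SoxC_KO_TNF, 1073 ± 927 in SoxC_KO, 913 ± 786 in control_TNF and 1342 ± 1015 in control (SD, n = 3 each). Top2a averaged 1627 ± 951 in SoxC_KO_TNF, 1609 ± 1125 in SoxC_KO, 1393 ± 929.5 in control_TNF and 1908 ± 1225 in control. Foxm1 averaged 384 ± 206 in SoxC_KO_TNF, 479 ± 187 in SoxC_KO, 423 ± 197 in control_TNF and 459.6 ± 215 in control. In these 3 genes the SD within each group, which holds 1 library numbered 3, exceeded the difference between any pair of group means. Cdk1 averaged 696 ± 181 in SoxC_KO_TNF, 859 ± 246 in SoxC_KO, 803 ± 232 in control_TNF and 797 ± 199.6 in control, and Mybl2 149.6 ± 73.6 in SoxC_KO_TNF, 184 ± 87.2 in SoxC_KO, 177 ± 70.3 in control_TNF and 159 ± 54.0 in control, where the same held.

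Other regulators passed no group comparison either. Ccnb1 averaged 485 ± 218 normalized counts in SoxC_KO_TNF, 540.1 ± 253 in SoxC_KO, 420.2 ± 163 in control_TNF and 583 ± 252 in control. Pcna averaged 1282 ± 67.8 in SoxC_KO_TNF, 1190 ± 199.8 in SoxC_KO, 1492 ± 291 in control_TNF and 1280 ± 84.0 in control. Ccne1 averaged 509.6 ± 68.6 in SoxC_KO_TNF, 618 ± 93.8 in SoxC_KO, 530.3 ± 76.5 in control_TNF and 629 ± 46.5 in control. Pcna and Ccne1 also passed no test between replicate numbers before the length adjustment. Mcm2 averaged 744 ± 218 in SoxC_KO_TNF, 759 ± 69.5 in SoxC_KO, 812 ± 75.3 in control_TNF and 772 ± 115 in control. Mcm5 averaged 466 ± 149 in SoxC_KO_TNF, 635 ± 72.9 in SoxC_KO, 571 ± 119 in control_TNF and 623 ± 122 in control. Ccnd1 averaged 8262 ± 703 in SoxC_KO_TNF, 8590 ± 2256 in SoxC_KO, 9630 ± 2575 in control_TNF and 8596 ± 2534 in control. Its narrowest group, SoxC_KO_TNF, held the lowest of the libraries numbered 3.

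Rrm2 was the S phase gene of smallest p under TNF in both genotypes. It had 3527, 3854 and 3330 normalized counts in SoxC_KO_TNF, 4409, 4252 and 4619 in SoxC_KO, 3833, 3571 and 3631 in control_TNF, and 4804, 4454 and 4368 in control in replicates 1, 2 and 3. In both genotypes every TNF library was below every untreated one. The share of all genes separated in this way was not counted. Changes were -0.31 ± 0.14 (SE) in SoxC_KO cells (adjusted p = 0.682) and -0.30 ± 0.14 (SE) in control cells (adjusted p = 0.998). Averaged over the genotypes the change was -0.31 ± 0.10 (SE), and Rrm2 was the 1 member with an unadjusted p under 0.05 there (adjusted p = 0.296).

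Of the mitotic genes, Cenpa had the smallest p for TNF in SoxC_KO cells and Melk in control cells. Cenpa had 290.0, 353 and 196 normalized counts in SoxC_KO_TNF, 518, 425 and 345 in SoxC_KO, 402, 351 and 247 in control_TNF, and 373, 315 and 275 in control in replicates 1, 2 and 3. Its TNF change in SoxC_KO cells was -0.64 ± 0.28 (SE) (adjusted p = 0.643), with overlap between the groups. Melk had 206, 255 and 73.2 in control_TNF and 315, 323 and 143 in control. Its change was -0.64 ± 0.62 (SE) (adjusted p = 0.998), and number 3 was the lowest library in both groups.

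For the TNF response averaged over the genotypes, all 32 mitotic genes lay below 0, between -0.43 and -0.01 with a median of -0.24, where 50.2% of all genes lay below 0. No member passed limma's test (1 at an unadjusted p under 0.05), where 1.17% of all genes did. Leaving out 1 library moved this median between -0.52 (without SoxC_KO replicate 3) and 0.03 (without SoxC_KO_TNF replicate 3), and it was -0.27 without all 4 libraries numbered 3.

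With the replicate number as a block, the members called stayed at 0 for TNF in SoxC_KO cells, for TNF in control cells and for the average. All genes called then came to 2.78%, 1.71% and 5.19%. At an unadjusted p under 0.05 the block fit held 18.9% of the members against 21.0% of all genes for TNF in SoxC_KO cells, and 26.4% against 12.2% for TNF in control cells. For the average it held 12 mitotic and 4 S phase genes, 30.2% of the members against 15.7% of all genes. The smallest adjusted p among members was 0.0538 for Plk1 in SoxC_KO cells (-0.78), 0.109 for Tpx2 in control cells (-0.47) and 0.0585 for Rrm2 on average. Outside the 53 members, the block called Gas1, a growth arrest gene, for TNF in SoxC_KO cells (-0.93, adjusted p = 0.0174) and on average (-0.64, adjusted p = 0.0104). It also called Kif4, a motor on mitotic chromosomes, on average (-0.43, adjusted p = 0.0453). Plk1, Tpx2, Gas1 and Kif4 were named after their values were seen.

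TNF differences were also read within replicate numbers. In SoxC_KO cells 20 of the 32 mitotic genes lay below 0 in number 1, 32 in number 2 and 18 in number 3, and in control cells 23, 30 and 27 did. Of the 18139 genes tested 8902, 9339 and 9391 lay below 0 in SoxC_KO cells, and 9496, 9434 and 8921 in control cells. The median TNF difference of the mitotic genes in SoxC_KO cells was -0.09 in number 1, -0.24 in number 2 and -0.08 in number 3. In control cells it was -0.45 in number 1, -0.27 in number 2 and -0.24 in number 3. In SoxC_KO cells 15 of 32 and in control cells 22 of 32 were lower in all 3 numbers, against 17.1% and 22.1% of all genes, and 6 of 32 in both genotypes, against 5.33% of all genes. Number 3 of SoxC_KO was the widest, with Mki67 at 1.94 (209 normalized counts with TNF and 53.7 without).

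**Figure D5:**
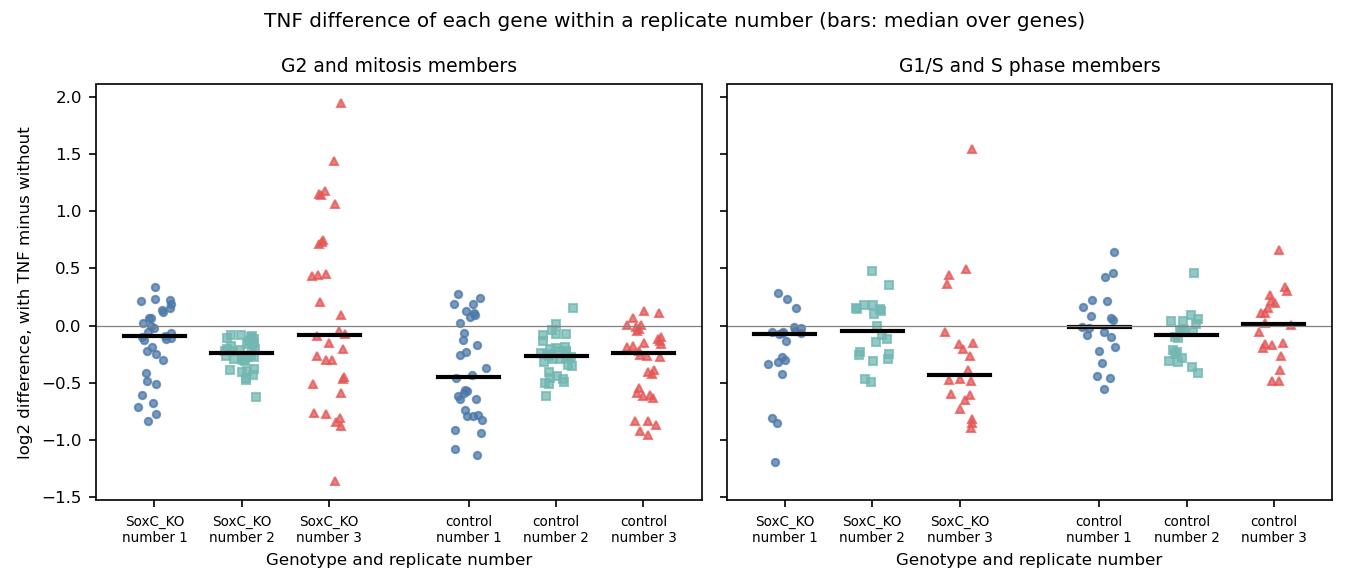
Each point is the log2 difference of 1 gene between the TNF library and the untreated library of the same genotype and replicate number (vertical axis), and bars are medians over the 32 G2 and mitosis genes (left) or the 20 genes of S phase (right). Medians of mitotic genes are below 0 in all 6 pairs, between -0.45 and -0.08, and number 3 of SoxC_KO has the widest scatter.

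These differences, too, ran with transcript length. Over the 32 mitotic genes the TNF change correlated with log2 length at r = 0.66 in SoxC_KO cells and r = -0.65 in control cells, against 0.16 and -0.27 over all genes, as descriptions across genes of the same libraries. In control_TNF replicate 1 the longest decile of genes stood at a median of -0.10 relative to the gene means, against 0.23 to 0.53 in the other libraries numbered 1 and 2. After the length adjustment 0 members were called, and the mitotic medians were -0.13 in SoxC_KO cells and -0.32 in control cells.

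Loss of SoxC called 0 members and 0 of all genes in limma's test, with TNF or without it, and 0 members had an unadjusted p under 0.05. Sox4, Sox11 and Sox12 were thus not called either, although their means were lower in the Cre groups. The lack of calls therefore does not show that the members were unaffected by loss of SoxC. Over the mitotic genes the median was 0.07 with TNF (SoxC_KO_TNF against control_TNF) and -0.22 without (SoxC_KO against control). Over the genes of S phase it was -0.13 with TNF and -0.03 without. The mitotic medians were -0.0046 with TNF and -0.09 without once the libraries numbered 3 were left out. Leaving out 1 library moved the median with TNF between -0.51 (without control_TNF replicate 3) and 0.56 (without SoxC_KO_TNF replicate 3). The median without TNF moved between -0.75 (without control replicate 3) and 0.42 (without SoxC_KO replicate 3).

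With TNF the members of smallest p were E2f1, at -0.50 ± 0.33 (SE) (adjusted p = 0.997), and Cdca8, at -0.36 ± 0.29 (SE) (adjusted p = 0.997). Without TNF they were Gins2, at 0.23 ± 0.20 (SE) (adjusted p = 0.999), and Cenpa, at 0.41 ± 0.28 (SE) (adjusted p = 0.999). For E2f1, Cdca8 and Cenpa the libraries of the 2 groups compared overlapped. Gins2 had 581, 555 and 656 normalized counts in SoxC_KO, all above the 521, 539 and 471 of control. It was picked for its smallest p, and the share of all genes separated in this way was not counted.

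Averaged over TNF, 49 of the 53 members had lower values in the Cre groups, as did 55.9% of all genes, with a median of -0.08 against -0.02 for all genes, and 0 passed limma's test (0 at an unadjusted p under 0.05). Of the mitotic genes Bub1b had the smallest p (-0.32 ± 0.41 (SE), adjusted p = 1) and of those of S phase Pcna (-0.16 ± 0.14 (SE), adjusted p = 1). With the replicate block 0 members were called for SoxC loss with TNF, without TNF or on average, where 0, 0 and 0.00551% of all genes were. In that fit 1, 6 and 1 members had an unadjusted p under 0.05, which is 1.89%, 11.3% and 1.89% of them, against 6.40%, 4.55% and 1.62% of all genes.

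The interaction, which is the TNF response of SoxC_KO cells minus that of control cells, called 0 members and 0 of all genes in limma's test (0 members at an unadjusted p under 0.05). With the replicate block it called 0 members as well, and 11 had an unadjusted p under 0.05, 20.8% of the members against 17.2% of all genes. Its median was 0.29 over the mitotic genes and -0.13 over those of S phase, and without the libraries numbered 3 it was 0.13 and 0.05. The members of smallest p were E2f1, at -0.80 ± 0.47 (SE), and Cenpa, at -0.67 ± 0.39 (SE), both with an adjusted p of 0.884. E2f1 averaged 787 ± 167 normalized counts in SoxC_KO_TNF, 1153 ± 528 in SoxC_KO, 1119 ± 277 in control_TNF and 899 ± 248 in control (SD, n = 3 each).

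Some members share exonic bases with a gene on the opposite strand: Kif20a 1271 with Cdc23, Prc1 911 with Rccd1, Ube2c 592 with Tnnc2, Ccna2 510 with Exosc9 and Mcm7 321 with Ap4m1. Pcna has 2 pseudogenes named after it in GENCODE M21, and Tyms, Ccnb1 and Ccnb2 have 1 each, so reads of these genes may have been split. The 12 libraries held an estimated 8.14 to 13.7 M read pairs, and counting error is largest for low members such as E2f2.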

How the data were processed

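Poly(A) RNA of 12 libraries was sequenced as paired reads on a NovaSeq, per the labels' protocols. The authors deposited 1 table of log2 normalized values. Per the submitters' processing notes, DESeq was among the tools and the build was mm10; the aligner, annotation and strand setting are not stated there. The table adds no pseudocount and lists values of 1 or less as 0. A linear scale had been assumed in the design, so values were raised to the power of 2 before log2(value + 1) was taken, which understates changes of low genes. Whole reads could not be recovered, so no count model was run.

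Genes with a value of 10 or more in 3 or more libraries were kept. Limma 3.58.1 (R 4.3.3) fitted group means to all 12 libraries with an intensity trend, and group plus replicate number for the number comparisons. For the length adjustment, chosen after the data were seen, a lowess curve (span 0.3) against log2 transcript length was subtracted in each library. Figures used Python 3.11.15, pandas 2.3.3 and matplotlib 3.10.9.

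The members, the gene lists and the contrast of number 3 were chosen with earlier results of these data known. In the number comparison 12 genes were always given in full, with those of the 10 largest falls; in each comparison with no call the member of smallest p in each phase list was named. Same-numbered libraries correlated after group means were removed (r above the cutoff of 0.1) in SoxC_KO_TNF and SoxC_KO (0.340, 0.148 and 0.501), control_TNF and control (0.103, 0.550 and 0.715) and SoxC_KO and control (0.457, 0.515 and 0.707). In SoxC_KO_TNF and control_TNF (0.0537, 0.189 and 0.526) number 1 did not. Number 3 standing apart alone can give such correlations, so the replicate block is an alternative. Other alternatives were median-ratio and quantile scaling, pseudocount 5, no filter, no trend, only the 6 libraries compared, and leaving out libraries.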

Additional observations from a re-analysis of the deposited data

Results flagged for a closer look

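E2f1 is listed because its TNF difference had opposite signs in the 2 genotypes in every replicate number. In SoxC_KO cells it was -0.28, -0.31 and -0.85 on the log2 scale in numbers 1, 2 and 3, and in control cells 0.64, 0.09 and 0.22. The TNF response of SoxC_KO cells minus that of control cells was -0.80, with an adjusted p of 0.884 in limma's interaction test (0.284 with the replicate block). Opposite signs in all 3 numbers occurred in 1.89% of the members (1 gene) and in 3.98% of all genes tested.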

How the results depend on the processing

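The number of members called was 0 for TNF, SoxC loss and their interaction under every alternative run, including the replicate block (0 in all 7 group comparisons). For number 3 against numbers 1 and 2 it was 47, and 44 to 47 when 1 library was left out (the F test over the 3 numbers called 46, and 42 to 47). All 208 alternative counts lay within 1.5 times their main count. For the log2 changes of all members in number 3 and of the other genes named, 1767 alternative values kept direction and side of the threshold, 7 reversed, 38 no longer passed and 4 newly passed. Ccnd2, Ccnf, Cdc25a and Cdkn2d were not in these counts. The reversals were small changes near 0. Ccne1 (-0.02) was at 0.083 under quantile normalization, and Gins2 (-0.12) at 0.14 after length adjustment. When 1 library was left out, Ccne1 ranged from -0.15 (without SoxC_KO replicate 3) to 0.063 (without control_TNF replicate 3), and Pcna (-0.07) from -0.14 (without control replicate 3) to 0.048 (without SoxC_KO replicate 3). Mcm2 did not pass under quantile normalization (-0.30, adjusted p = 0.0536), without SoxC_KO_TNF replicate 3 (-0.26, adjusted p = 0.0697) or after length adjustment (-0.24, adjusted p = 0.0941), nor did Cdt1 (0.0567), Tk1 (0.0839) and E2f2 (0.114) under quantile normalization, or E2f2 (0.107) and Cdkn1c (0.0577) with no filter, by adjusted p. After length adjustment Cdk1 (-0.31), Rrm1 (-0.20), E2f2 (-0.18), Psrc1 (0.12), Cdkn1c (0.79) and Cdk6 (-0.27) did not pass and Pcna (-0.43, adjusted p = 0.00737) did; the cause was not tested. Leaving out single libraries ended the calls of E2f2 (8 of 12 fits), Rfc2 (6), Tk1 (4), Cdt1 (2), Cdkn1c (2) and Mcm2 (1). The other newly passed values were those of Gas1 and Kif4 with the replicate block. The medians in number 3 were -1.36 (mitosis) and -0.40 (S phase) under quantile normalization. The depth, known only as an estimate, limits low genes most.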

Other observations

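Markers of other tissues were also read. Summed levels of 7 endothelial markers were 196 to 234 normalized counts in number 3 and 216 to 313 in numbers 1 and 2. Of the 7 tested 1 was lower, where 30.3% of all genes were lower and 25.9% higher. The 8 skeletal muscle markers summed to 519 to 1544 in number 3 and 506 to 1422 in the others, with 1 higher and 2 lower of 7 tested. The 5 red blood cell markers summed to 0 to 12.4 in number 3 and 0 to 139 in the others, and none was high enough to test. Of 11 liver markers, 8 were at 0 in 6 or more libraries, and the sums were 34.6 to 110 in number 3 and 26.9 to 4689 in the others. Without the 2 libraries high in liver transcripts, 47 cell cycle genes were called in number 3, with medians of -1.54 for mitosis and -0.55 for S phase.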
